A study of Mus musculus with 9 samples.

Results

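The 7 genes described here encode metallothioneins and proteins of zinc handling in mouse liver: Mt1, Mt2, Mtf1, Slc30a1, Slc30a10, Slc39a14 and Slc39a4. They were looked up by symbol, and all 7 were found among the 20325 genes of the deposited tables and among the 12037 genes tested. Mt1 was chosen by its measured level, which in 1 liver, GF replicate 3, stands apart from the others of its group, so its values are given as a description with no test.

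The study sequenced liver mRNA of chow-fed male C57BL/6J mice, with 3 livers in each of 3 groups. ConvD mice were germ-free animals that received cecal contents of conventionally raised donors in a single gavage at 15 weeks of age and were colonised for 4 weeks. GF+SCFA mice remained germ-free, and their drinking water held short-chain fatty acids, products of bacterial fermentation in the gut, at 40 mM for butyrate, 25.9 mM for propionate and 67.5 mM for acetate. GF mice remained germ-free and had no supplement. The labels disagree on age at collection, which the design text gives as 14 weeks and the growth protocol as 19 weeks. For ConvD mice, gavage at 15 weeks and 4 weeks of colonisation go with 19 weeks. Mice were housed by colonisation status, and the fatty acids were given in drinking water, so cage and group cannot be told apart. The samples are described as biological replicates without a label for the animal, so p-values measure the spread between samples.

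Metallothioneins are small cysteine-rich proteins that bind zinc, copper and cadmium, and the liver is a main site of their synthesis. Their genes are induced by metals through MTF1, a zinc-sensing transcription factor that binds metal response elements, and also by glucocorticoids, fasting and inflammation. Zinc enters the cytosol through transporters of the SLC39 (ZIP) family and leaves it through the SLC30 (ZnT) family, some of whose members also carry manganese or iron.

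Depth was 18193071 to 21627696 expected counts per library. Hepatocyte marker genes summed to 81214 to 106765 TPM (TPM is a transcript level scaled for gene length and depth) in ConvD, 80500.1 to 92037 TPM in GF+SCFA and 83444 to 104710.0 TPM in GF livers. Alb, at 55018 to 80508 TPM over the 9 livers, made up most of each sum. Of 12 markers of pancreatic acinar cells, 10 were under 1 TPM in all 9 livers, and 6 of these, among them Prss2, Cpb1 and Pnlip, were at 0, while Cela1 stood at 23.3 to 36.8 TPM and Cela2a at 1.03 to 2.12 TPM. Of 8 markers of intestinal epithelium, Sis, Cdx2 and Muc2 were at 0 in all 9 livers, while Fabp2 stood at 153 to 264 TPM and Tff3 at 1.21 to 17.1 TPM. Markers of Kupffer cells and macrophages summed to 332 to 444 TPM in ConvD, 236 to 290 TPM in GF+SCFA and 207 to 288 TPM in GF livers. Neutrophil markers summed to 25.2 to 41.4 TPM in ConvD, 1.04 to 2.86 TPM in GF+SCFA and 2.14 to 4.69 TPM in GF livers. In ConvD against GF livers, 6 of 10 macrophage markers tested were higher by edgeR's adjusted p, and against GF+SCFA livers 2 of 10. Over all genes tested, 5.93% and 9.44% were higher in these comparisons, and 6.9% and 8.97% lower. Of 8 hepatocyte markers, edgeR called 1 higher and 2 lower in ConvD against GF, and 1 higher and 3 lower against GF+SCFA. Of 9 neutrophil markers listed, 4 were tested, and edgeR called all 4 higher in each ConvD comparison. DESeq2 called 2 of these against GF and 4 against GF+SCFA. Ltf was at 0 TPM in all GF and GF+SCFA livers, so it passed the count filter through ConvD alone. Ngp was at 0 TPM in all GF+SCFA livers and 0 to 0.37 TPM in GF livers, against 1.34 to 3.26 TPM in ConvD. The neutrophil counts are therefore a description. The part of these cell types in the differences below was not tested. In whole tissue, fewer cells of a type and less RNA per cell cannot be told apart.

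Promoter windows are given because metal response elements lie in such regions. Each window is the 250 bases before the gene's start in the promoter table of RefSeq (assembly GRCm38.p6, plus strand), which had entries for 5 of the 7 genes: Mt1, Mt2, Mtf1, Slc30a1 and Slc30a10. The core of the metal response element was searched as TGCACNC and TGCGCNC on both strands. The windows of Mt2, chr8:94172368-94172617, and Slc30a10, chr1:185454598-185454847, are shown because they held the most matches and end where RefSeq's annotated gene begins. Capitals mark the matches. For Mt2 that start lies upstream of the start of shorter GENCODE M21 transcripts, so distances are relative to the RefSeq start alone.
Mt2: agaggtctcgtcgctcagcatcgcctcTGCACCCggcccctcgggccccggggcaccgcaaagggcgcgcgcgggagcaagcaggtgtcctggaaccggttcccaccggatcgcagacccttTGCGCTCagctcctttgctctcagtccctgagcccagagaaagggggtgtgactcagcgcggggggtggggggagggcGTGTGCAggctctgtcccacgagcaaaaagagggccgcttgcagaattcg
Slc30a10: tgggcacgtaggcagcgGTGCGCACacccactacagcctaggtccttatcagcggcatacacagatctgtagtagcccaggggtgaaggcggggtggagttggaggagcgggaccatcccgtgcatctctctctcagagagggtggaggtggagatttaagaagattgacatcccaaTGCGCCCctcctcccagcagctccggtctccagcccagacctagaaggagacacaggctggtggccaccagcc

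Mt2 held 3 matches, at 217 to 223, 122 to 128 and, on the reverse strand, 44 to 50 bases before the start. Slc30a10 held 3, of which 2 overlap each other on opposite strands. The Mtf1 window held 0. The Mt1 window held 1 match, 17 to 23 bases before the start, and the Slc30a1 window held 1 on the reverse strand. In both of these windows the match lies inside the annotated gene, which holds 206 bases of the Mt1 window and 84 of the Slc30a1 window. Among 32851 RefSeq windows of this length, 21.4% held at least 1 match and 1.26% held at least 3. A match describes these letters and is not evidence of binding.

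Mt1 and Mt2, the metallothioneins made in hepatocytes, were highest in the GF+SCFA livers and in GF replicate 3, and lowest in ConvD replicate 1. Mt1 stood at 33.9, 74.1 and 87.2 TPM in ConvD replicates 1, 2 and 3. It stood at 215, 194 and 431 TPM in the GF+SCFA livers and at 57.7, 77.5 and 291 TPM in the GF livers. All ConvD values lay below all GF+SCFA values, while the GF values spanned most of the range of the other two groups, with replicate 3 at 4.3 times the mean of GF replicates 1 and 2. Mt2 stood at 10.8, 33.5 and 30.0 TPM in ConvD, 145, 147 and 311 TPM in GF+SCFA, and 14.9, 28.2 and 178 TPM in GF livers. GF replicate 3 was 8.26 times the mean of the other 2 GF livers in Mt2, and lay between the ConvD and the highest GF+SCFA values. Mt3 and Mt4, the brain and epithelial metallothioneins, were listed at 0 in all 9 livers.

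**Figure D1:**
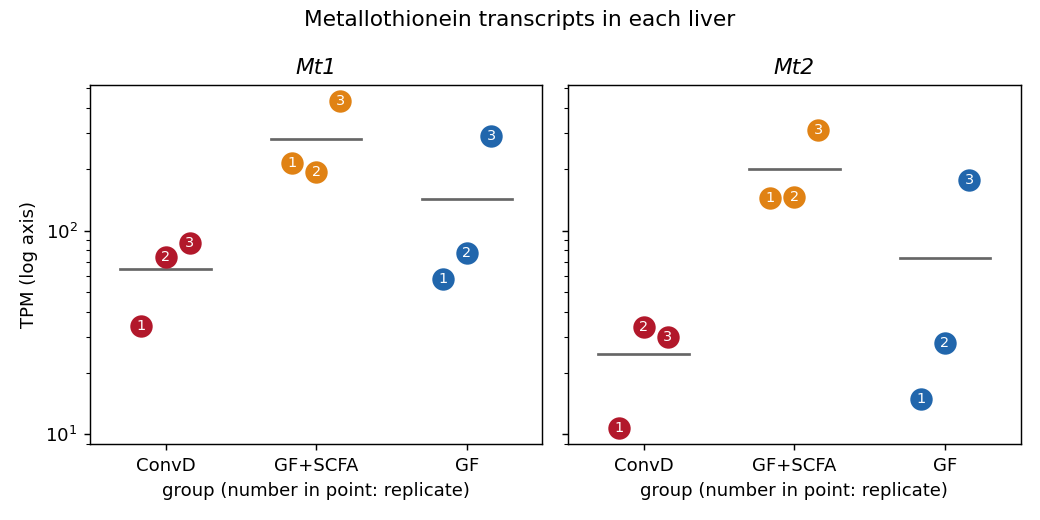
TPM on a log axis of Mt1 (left) and Mt2 (right) in each liver, by group, with the replicate number in each point and a line at the group mean. The 3 ConvD livers lie below the 3 GF+SCFA livers in both genes, and GF replicate 3 lies apart from GF replicates 1 and 2.

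As group means, Mt1 was 65.1 ± 27.8 TPM in ConvD, 280 ± 131 TPM in GF+SCFA and 142 ± 129 TPM in GF livers (SD, n = 3 each). Its fitted log2 fold change was -2.18 (SE 0.74) in ConvD against GF+SCFA, -1.13 (SE 0.74) in ConvD against GF and 1.05 (SE 0.71) in GF+SCFA against GF. Without GF replicate 3, the ConvD against GF value was -0.16 and the GF+SCFA against GF value 2.02. The GF+SCFA against GF value was 0.59 without GF+SCFA replicate 3 and 0.69 without GF replicate 1.

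Mt2 averaged 24.7 ± 12.2 TPM in ConvD, 201 ± 95.7 TPM in GF+SCFA and 73.7 ± 90.5 TPM in GF livers (SD, n = 3 each). None of the 3 differences passed the threshold, an adjusted p under 0.05 in edgeR's quasi-likelihood F test with Benjamini-Hochberg adjustment over all 12037 genes. The log2 fold change was -3.10 (SE 1.01, adjusted p = 0.0865) in ConvD against GF+SCFA, -1.57 (SE 1.01, adjusted p = 0.368) in ConvD against GF and 1.53 (SE 0.91, adjusted p = 0.563) in GF+SCFA against GF. These comparisons share libraries and are not independent of each other. Both metallothioneins had no overlap between ConvD and GF+SCFA livers, as had 38% of all genes tested.

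The call on Mt2 depended on 1 library and on the tool. Without GF replicate 3, whose spread enters the shared variance, ConvD against GF+SCFA passed (edgeR adjusted p = 0.0224). It also passed when these 2 groups alone were fitted (edgeR adjusted p = 0.0382) and with limma on log2(TPM + 0.5) (adjusted p = 0.0161). Over all alternatives that gave one, the adjusted p was 0.0158 to 0.211. Without the same liver, Mt2 in ConvD against GF had a log2 fold change of 0.08 (edgeR adjusted p = 0.962), and GF+SCFA against GF had one of 3.18 (edgeR adjusted p = 0.132).

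The balance of the pair also varied between livers. The ratio of Mt1 to Mt2 TPM was 3.16, 2.21 and 2.91 in the ConvD livers, 1.49, 1.32 and 1.38 in the GF+SCFA livers and 3.88, 2.75 and 1.64 in the GF livers. The ratio was 1.32 to 1.64 in the 4 livers where both genes summed to 340 to 742 TPM, and 2.21 to 3.88 in the 5 livers with sums of 44.7 to 117 TPM. GF replicate 3, with a ratio of 1.64 and a sum of 469 TPM, fell on the side of the GF+SCFA livers. Mt2 supplied 24.1% to 31.1% of the sum in ConvD, 40.2% to 43.1% in GF+SCFA and 20.5% to 37.9% in GF livers. The longest run of bases shared by the Mt1 and Mt2 transcripts (GENCODE M21) was 20.

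**Figure D2:**
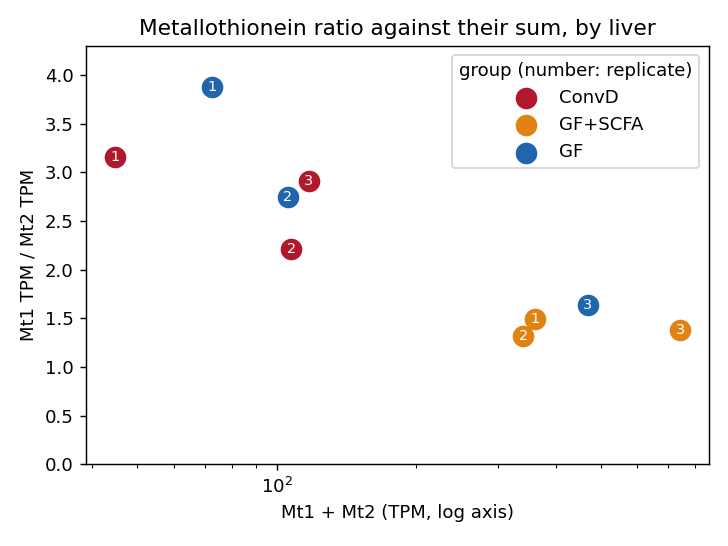
Ratio of Mt1 to Mt2 TPM against the sum of both in TPM (log axis), with 1 point for each of the 9 livers, coloured by group and numbered by replicate. The 3 GF+SCFA livers and GF replicate 3 lie together at the lower right, with ratios of 1.32 to 1.64.

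Over the 9 livers, Mt2 was the gene most like Mt1 among 9896 genes whose expected counts averaged 50 or more. Pearson's r of log2(CPM + 0.5) was 0.987 and Spearman's rho 0.95, and r was 0.986 without GF replicate 3. Without the 2 livers farthest from the median of Mt1, GF replicate 3 and GF+SCFA replicate 3, r was 0.978. The livers fall into groups, and a group of 3 is too small for a value of its own, so r is a description with no p. The next in likeness were A230051G13Rik (r = 0.973), Mnt, a repressor of the MYC network (0.967), Angptl4, a secreted inhibitor of lipoprotein lipase (0.957), Eif1, a translation initiation factor (0.955), Gm6907 (0.953), Fau, which encodes a ribosomal protein (0.951), and Lrrc58 (0.950).

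Angptl4 illustrates how much smaller the range of these genes was. It stood at 101, 112 and 119 TPM in ConvD, 136, 167 and 169 TPM in GF+SCFA and 103, 104 and 157 TPM in GF livers, where replicate 3 was again the highest. Among the other members, Slc39a14 had r = 0.687 with Mt1 and Slc30a1 had 0.125, while Mtf1 had r = -0.472, Slc30a10 -0.546 and Slc39a4 -0.817. Without the same 2 livers, r was 0.385 for Slc39a14, -0.0733 for Slc30a1, -0.133 for Mtf1, -0.352 for Slc30a10 and -0.798 for Slc39a4.

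Mt1 was chosen on GF replicate 3, so a wide spread within groups that counts this liver follows in part from the choice, and it is given as a description. The pooled SD within groups on the log2 scale was 1.17 for Mt2, rank 9 among 9897 genes, and 0.878 for Mt1, rank 23, where the median gene had 0.125. Mtf1 at 0.169, Slc30a1 at 0.114 and Slc30a10 at 0.155 lay near the median, and Slc39a4 at 0.251 and Slc39a14 at 0.236 lay above it. Over the ConvD and GF+SCFA livers alone, which leaves out the group of GF replicate 3, the pooled SD was 0.708 for Mt1, rank 38. It was 0.771 for Mt2, rank 32, with a median gene at 0.117. Each liver was also set against the mean of the other 2 of its group. On that log2 scale, Mt1 and Mt2 moved the same way in all 9 livers. The differences within a group depend on each other, so these are not 9 separate agreements. For Mt1 the difference ran from -1.31, in ConvD replicate 1 and GF replicate 1, to 1.94 in GF replicate 3. For Mt2 it ran from -2.10 in GF replicate 1 to 2.87 in GF replicate 3. In GF+SCFA replicate 3, the differences were 1.09 for Mt1 and 1.11 for Mt2.

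**Figure D3:**
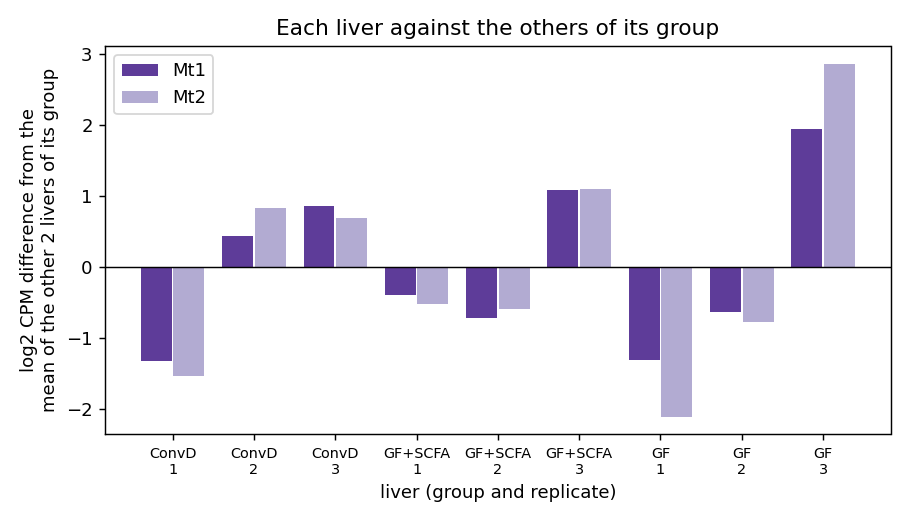
Difference in log2 CPM of each liver from the mean of the other 2 livers of its group, for Mt1 (dark bars) and Mt2 (light bars). Both genes have the same sign in each of the 9 livers, where the bars of a group depend on each other. GF replicate 3 has the highest bars, 1.94 for Mt1 and 2.87 for Mt2.

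GF replicate 3, by whose level Mt1 was chosen, had Mt2 as its gene of rank 1 among 9897 for the rise over GF replicates 1 and 2 (7.31-fold in CPM), and Mt1 as rank 6 (3.84-fold). Cyp2b9 and Cyp2b10, cytochrome P450 genes of which Cyp2b10 is a known target of the nuclear receptor CAR, were among the 4 others in the first 6. Cyp2b10 stood at 20.2 TPM in this liver, against 2.42 and 6.50 TPM in the other GF livers, 26.6 to 32.5 TPM in GF+SCFA and 5.47 to 16.7 TPM in ConvD livers. Cyp2b9 stood at 7.41 TPM in this liver, against 0.71 and 1.07 TPM in the other GF livers, 3.04 to 5.58 TPM in GF+SCFA and 0.45 to 1.11 TPM in ConvD livers. Hba-a2 and Rps27 completed the list, and both were at 0 in GF replicate 2 but not in GF replicate 1. Both genes have near-identical copies, and the part of that in their values was not tested.

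Among the genes lowest in GF replicate 3 were Hspa1a and Hspa1b, near-identical heat shock protein genes. Hspa1b stood at 10.9 TPM in this liver and at 33.3 and 21.7 TPM in GF replicates 1 and 2. The others were Moxd1, 8430408G22Rik, Mup17, a major urinary protein gene with close copies, and Amd1, which was near 0 in 6 of the 9 livers. In all, 64 of 9897 genes differed at least 2-fold between this liver and the mean of the other 2, with 48 higher and 16 lower. In the other 8 livers this count was 20 to 58. Of the other members, Slc39a14 was 1.39-fold higher in GF replicate 3 in CPM (rank 288), Slc39a4 was at 0.724-fold and Mtf1 at 0.761-fold, while Slc30a1 and Slc30a10 were at 1.02-fold and 0.917-fold.

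Mtf1, the zinc sensor, was among the lower of the 7 genes. It stood at 3.06, 3.05 and 2.72 TPM in ConvD, 2.62, 3.18 and 2.40 TPM in GF+SCFA and 3.65, 3.40 and 2.96 TPM in GF livers. The ranges of the 3 groups overlapped. The log2 fold change was -0.25 (SE 0.12) in ConvD against GF, with an edgeR adjusted p of 0.183 that fell to 0.0420, with a log2 fold change of -0.38, without GF replicate 3. It was -0.27 in GF+SCFA against GF (edgeR adjusted p = 0.386) and 0.02 in ConvD against GF+SCFA (edgeR adjusted p = 0.936). An exon of Mtf1 overlaps 1110065P20Rik on the opposite strand, and whether counting used strand is not known from the sources used here, so reads of the pair may be mixed. The same holds for exons of Mt2 (Gm45774), Slc30a1 (1700034H15Rik) and Slc30a10 (Gm2061), whose opposite-strand partners are annotated in GENCODE M21.

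Slc30a1, the zinc exporter of the plasma membrane and a known target of MTF1, had overlapping levels in the 3 groups. It stood at 9.01, 9.5 and 10.1 TPM in ConvD, 7.94, 8.97 and 9.06 TPM in GF+SCFA and 9.41, 8.08 and 9.95 TPM in GF livers. In GF replicate 3 and the GF+SCFA livers, where the metallothioneins were high, the CPM of Slc30a1 stayed within the range of the other livers. In TPM, GF+SCFA replicate 1 lay just below that range. The part of MTF1 in the metallothionein values was not tested. The log2 fold change was -0.0006 in ConvD against GF, with an interval of 2 SE from -0.18 to 0.18 and an edgeR adjusted p of 0.999. It was -0.06 in GF+SCFA against GF (edgeR adjusted p = 0.848) and 0.06 in ConvD against GF+SCFA (edgeR adjusted p = 0.714).

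Slc30a10 belongs to the same family but exports manganese in human and mouse, and of the 6 members tested it had the smallest adjusted p in both ConvD comparisons. It stood at 6.31, 5.51 and 5.75 TPM in ConvD, 3.87, 3.26 and 2.94 TPM in GF+SCFA and 3.05, 2.42 and 2.76 TPM in GF livers. The lowest ConvD liver was above the highest of the other 6 livers. Groups without overlap were found in 31.6% of all genes tested in ConvD against GF, 17.9% in GF+SCFA against GF and 38% in ConvD against GF+SCFA. In ConvD against GF livers it rose 2.04-fold (log2 fold change 1.03, SE 0.12, edgeR adjusted p = 0.00018). In ConvD against GF+SCFA livers it rose 1.64-fold (log2 fold change 0.72, SE 0.12, edgeR adjusted p = 0.00105). Both calls held in all 18 alternatives. Reads of Gm2061, on the opposite strand, may be among its counts. The log2 fold change of GF+SCFA against GF was 0.31, with an interval of 2 SE from 0.07 to 0.55 and an edgeR adjusted p of 0.329.

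Slc39a14, which imports zinc, manganese and iron into hepatocytes, had the highest level of the SLC39 family, at 56.8 TPM over all livers. It stood at 55.4, 60.7 and 42.8 TPM in ConvD, 54.6, 57.0 and 64.3 TPM in GF+SCFA and 45.3, 54.4 and 77.0 TPM in GF livers. GF replicate 3 was again the highest and the groups overlapped. No difference passed the test, with log2 fold changes of -0.21 in ConvD against GF (edgeR adjusted p = 0.442), 0.03 in GF+SCFA against GF (edgeR adjusted p = 0.963) and -0.24 in ConvD against GF+SCFA (edgeR adjusted p = 0.355).

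Slc39a4, known as the importer that takes up dietary zinc in the intestine, had rank 4 in its family in these livers. It stood at 60.1, 46.9 and 39.0 TPM in ConvD, 26.3, 26.4 and 26.8 TPM in GF+SCFA and 28.3, 38.5 and 26.5 TPM in GF livers. The ConvD livers were above all others, by little over GF replicate 2, whose CPM overlapped theirs. In ConvD against GF+SCFA livers it rose 1.72-fold (log2 fold change 0.78, SE 0.18, edgeR adjusted p = 0.0214). That call was lost when any of 5 livers was left out, namely ConvD replicates 1 and 2 and each GF+SCFA liver (edgeR adjusted p = 0.0541 to 0.0833). The log2 fold change of ConvD against GF was 0.56 (SE 0.18, edgeR adjusted p = 0.0817), and it passed without GF replicate 2 (edgeR adjusted p = 0.0035), with library totals (edgeR adjusted p = 0.0289), with DESeq2 (adjusted p = 0.00923) and with limma on log2(TPM + 0.5) (adjusted p = 0.0307). That of GF+SCFA against GF was -0.22 (edgeR adjusted p = 0.678).

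**Figure D4:**
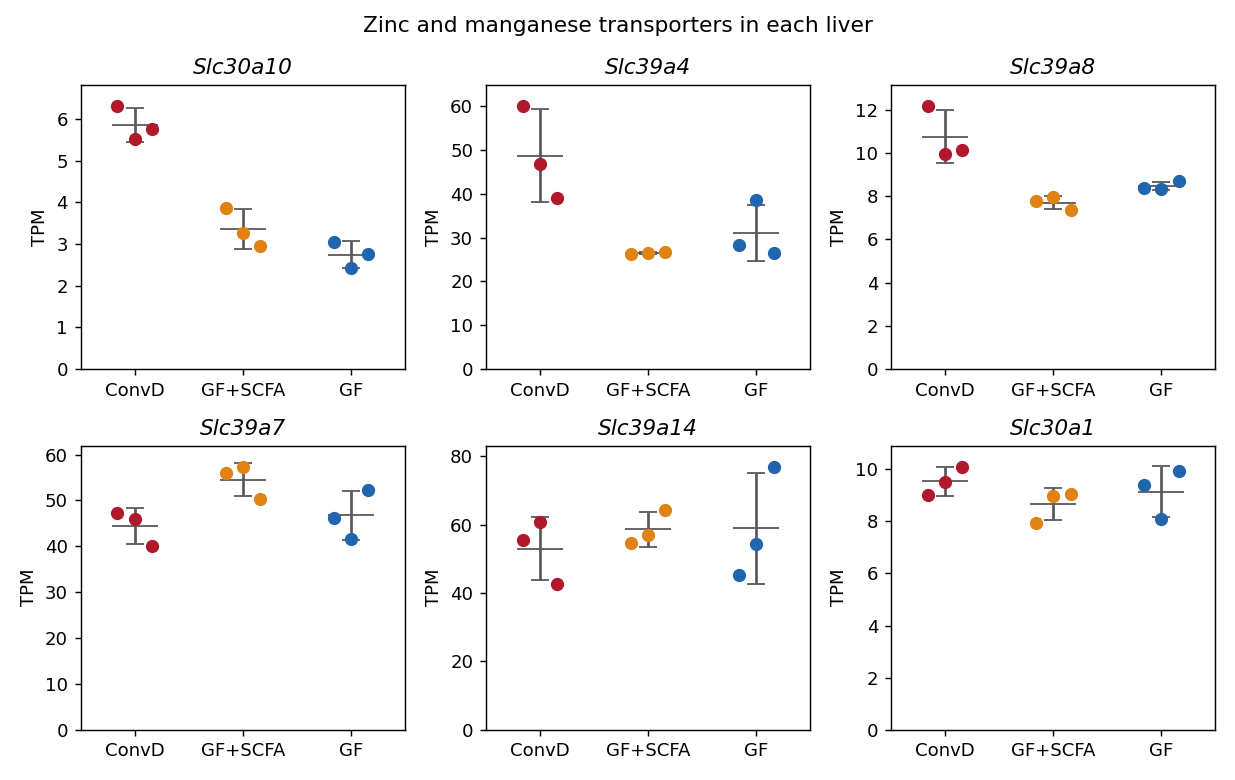
TPM of 6 transporter genes in each liver by group, with points for livers and a line and bar for the mean ± SD (n = 3). Slc30a10 and Slc39a4 are higher in the 3 ConvD livers, while Slc30a1 and Slc39a14 overlap between all groups.

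Of the 6 members other than Mt1, 1 was called in ConvD against GF, where 12.8% of all genes were called, 5.93% higher and 6.9% lower. The share of calls that were higher was 46.2%, and it was 66.1% with upper-quartile factors and 73.1% with library totals. In ConvD against GF+SCFA, 2 of 6 were called, both higher, where 18.4% of all genes were called, 9.44% higher and 8.97% lower. The share of calls that were higher was 51.3% there, and it was 66.8% with upper-quartile factors and 72.4% with library totals. In GF+SCFA against GF, edgeR called 0 of 6, where 0.0415% of all genes were called, 0.00831% higher and 0.0332% lower. By unadjusted p, 2 of 6 were under 0.05, as were 1477 of all 12037 genes tested. DESeq2, which gave no adjusted p for Mt2, and limma called 0 of the 6. With 6 genes, these counts are too small to set the members apart from all genes.

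**Figure D5:**
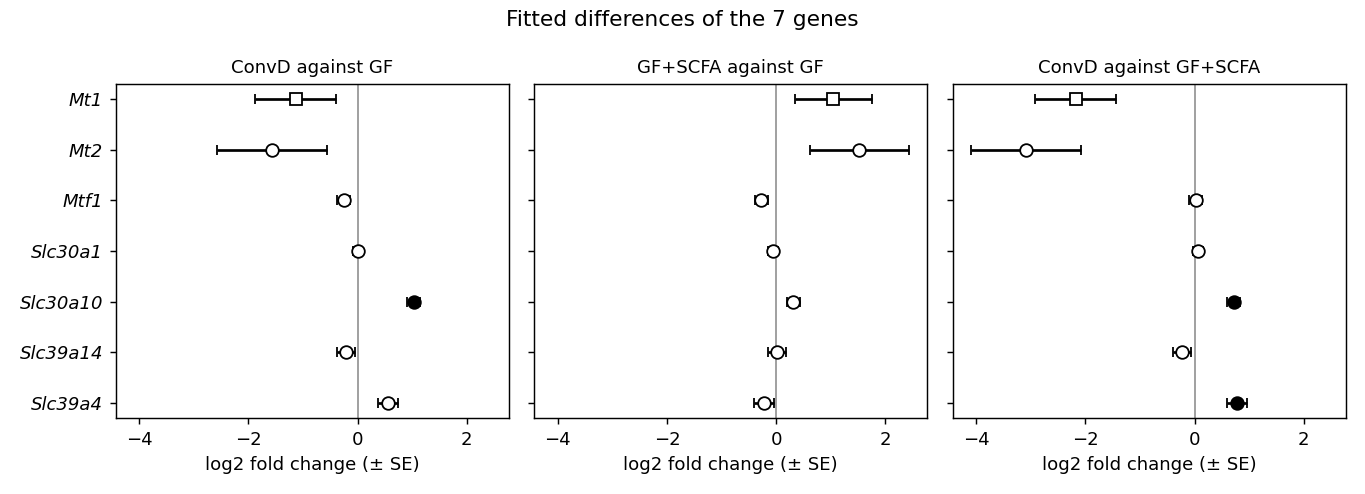
Fitted log2 fold change ± SE of the 7 genes in the 3 comparisons. Filled points have an edgeR adjusted p under 0.05, open circles do not, and the open square of Mt1 has no test; Slc30a10 is filled in both ConvD comparisons and Slc39a4 in ConvD against GF+SCFA.

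Of 10 SLC30 genes listed, 7 were tested, and of 14 SLC39 genes, 12. Over all genes tested, 12.8% were called in ConvD against GF and 18.4% in ConvD against GF+SCFA. Of the 7, Slc30a10 was higher in ConvD against GF, with a median log2 fold change of -0.10 over the 7 and of 0.003 over all genes tested. Of the 12 SLC39 genes, edgeR called 0 with TMM factors and all 9 livers (3 at an unadjusted p under 0.05, 1 each by DESeq2 and limma), with a median of 0.04. An unadjusted p under 0.05 was found for 3437 of all 12037 genes tested in ConvD against GF. With library totals edgeR called 2, Slc39a4 and Slc39a8, and the count was 0 to 2 over all alternatives. Slc30a10 was higher and Slc30a9 lower in ConvD against GF+SCFA (median -0.03), as were Slc39a4 and Slc39a8 higher and Slc39a7 lower among SLC39 genes (median -0.10). In GF+SCFA against GF, edgeR called 0 genes of either family, with 1 of each at an unadjusted p under 0.05 and 0 by DESeq2 or limma. There, 1477 of all 12037 genes tested had an unadjusted p under 0.05.

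Slc39a8, which carries manganese as well as zinc, stood at 12.2, 9.97 and 10.1 TPM in ConvD, 7.79, 7.95 and 7.36 TPM in GF+SCFA and 8.37, 8.35 and 8.72 TPM in GF livers. Each ConvD liver was above each of the other 6. Its log2 fold change was 0.39 in ConvD against GF+SCFA (SE 0.08, edgeR adjusted p = 0.0052, held in all 18 alternatives) and 0.26 in ConvD against GF (SE 0.08, edgeR adjusted p = 0.0503), where it passed with upper-quartile factors (edgeR adjusted p = 0.0225) and library totals (edgeR adjusted p = 0.0236). Slc39a7, which releases zinc from the endoplasmic reticulum, stood at 47.3, 46.0 and 40.1 TPM in ConvD. It stood at 55.9, 57.4 and 50.4 TPM in GF+SCFA and at 46.2, 41.7 and 52.4 TPM in GF livers, which overlapped ConvD. Its log2 fold change was -0.14 in ConvD against GF (edgeR adjusted p = 0.219) and -0.38 in ConvD against GF+SCFA (SE 0.07, edgeR adjusted p = 0.00271). That call was lost with limma on log2(TPM + 0.5) (adjusted p = 0.072). Slc30a9 had a log2 fold change of -0.24 in the same comparison (edgeR adjusted p = 0.0264), and the call was lost in 7 of 18 alternatives, among them library totals (edgeR adjusted p = 0.14) and the removal of GF+SCFA replicate 1 or 3 or ConvD replicate 1 (edgeR adjusted p = 0.067 to 0.113).

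Among 8 genes of manganese handling, which include Slc30a10, Slc39a14 and Slc39a8, Slc30a10 was the 1 called in ConvD against GF. Higher in ConvD against GF+SCFA were 2, Slc30a10 and Slc39a8, and 2 were lower. The lower ones were Slc11a2, an importer of divalent metals (log2 fold change -0.32, edgeR adjusted p = 0.0249, held in 9 of 18 alternatives with an adjusted p of up to 0.226), and Sod2, the manganese superoxide dismutase of mitochondria (-0.33, edgeR adjusted p = 0.012, held in 13 of 18 with an adjusted p of up to 0.0925). The call on Slc11a2 was lost without GF+SCFA replicate 1 or 2 or any ConvD liver, and that on Sod2 without GF+SCFA replicate 2 or ConvD replicate 2. The median of the 8 was -0.21 in ConvD against GF and -0.11 in ConvD against GF+SCFA, where 12.8% and 18.4% of all genes were called. Among 12 genes of copper handling, Slc31a2 was higher in ConvD against GF (log2 fold change 0.45, edgeR adjusted p = 0.0268) and in ConvD against GF+SCFA (0.56, edgeR adjusted p = 0.00669). The first call was lost without any of 5 livers, namely each GF liver and ConvD replicates 2 and 3 (edgeR adjusted p = 0.0516 to 0.0852), and the other held in all 18 alternatives. Slc31a1, the main copper importer, was lower in ConvD against GF+SCFA (-0.21, edgeR adjusted p = 0.0429), which held in 7 of 18 alternatives and was lost without GF replicate 1, ConvD replicate 1 or 2 or any GF+SCFA liver (edgeR adjusted p = 0.0553 to 0.148). The medians of the 12 were 0.003 in ConvD against GF and -0.08 in ConvD against GF+SCFA. The same shares of all genes called, 12.8% and 18.4%, stand beside the copper counts.

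Of 8 genes linked to MTF1 in mouse, which include Mt1, Mt2 and Slc30a1, 7 were tested, since Mt1 had no test. Slc30a10, higher in both ConvD comparisons, is not in this list because its link to MTF1 is uncertain. Gclc was the 1 of the 7 called in each ConvD comparison, and limma on log2(TPM + 0.5) called 3 in ConvD against GF+SCFA. The medians of all 8, which include Mt1 and so are a description, were 0.10 in ConvD against GF and 0.16 in ConvD against GF+SCFA. In these comparisons, 12.8% and 18.4% of all genes were called. Gclc, an enzyme subunit for glutathione synthesis, stood at 142, 119 and 146 TPM in ConvD, 77.8, 76.7 and 67.6 TPM in GF+SCFA and 75.2, 84.6 and 81.6 TPM in GF livers. It was higher in ConvD against GF (log2 fold change 0.68, edgeR adjusted p = 0.000749) and in ConvD against GF+SCFA (0.79, edgeR adjusted p = 0.000169). Gclc is also a target of NRF2, the regulator of oxidative stress genes. Over all genes tested, 5.93% were higher against GF and 9.44% against GF+SCFA. Of 11 NRF2 target genes, 6 were higher and 0 lower in each ConvD comparison, with medians of 0.62 against GF and 0.59 against GF+SCFA. Their TPM summed to 2266 to 3139 in ConvD, 1566 to 1591 in GF+SCFA and 1608 to 1756 in GF livers. Gstm1 made up most of these sums, at 1330 to 2251 TPM in ConvD, 955 to 1074 TPM in GF+SCFA and 1059 to 1191 TPM in GF livers. The part of NRF2 in the metallothionein values was not tested. Between GF+SCFA and GF livers, edgeR called 0 genes of the manganese, copper, MTF1 and NRF2 lists, with 1, 2, 0 and 1 at an unadjusted p under 0.05 and 0 by DESeq2 or limma. Beside these stand 1477 of all 12037 genes tested with an unadjusted p under 0.05.

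Of 17 glucocorticoid-induced genes, 7 were lower and 1, Lcn2, higher in ConvD against GF, with a median log2 fold change of -0.38. The count of 8 called was 4 without ConvD replicate 1 and 5 with library totals. Set against GF+SCFA, 8 were lower in ConvD and Lcn2 again higher, with a median of -0.84. Over all genes tested, 6.9% were lower and 5.93% higher against GF, and 8.97% lower and 9.44% higher against GF+SCFA. For GF+SCFA against GF, edgeR called 0, with 3 at an unadjusted p under 0.05, 0 by DESeq2 or limma and 3 by edgeR without GF replicate 3. Of all 12037 genes tested, 1477 were at an unadjusted p under 0.05 in GF+SCFA against GF. Without GF replicate 3, edgeR called 173 of all genes tested.

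Tsc22d3, a target of the glucocorticoid receptor, stood at 83.2, 84.4 and 107 TPM in ConvD, 173, 192 and 175 TPM in GF+SCFA and 144, 115 and 165 TPM in GF livers. The ConvD livers were below all others, and GF replicate 3 was the highest GF liver. Its log2 fold change was -1.05 (SE 0.13) in ConvD against GF+SCFA (edgeR adjusted p = 0.000413) and -0.68 (SE 0.13) in ConvD against GF (edgeR adjusted p = 0.00724). Tat, a tyrosine-degrading enzyme, had log2 fold changes of -1.24 (edgeR adjusted p = 0.000531) and -1.14 (edgeR adjusted p = 0.00153) in the same comparisons. Pck1 had the smallest adjusted p of the list in both, at -0.84 (edgeR adjusted p = 0.00015) and -0.88 (edgeR adjusted p = 0.00018). Both Pck1 calls held in all 18 alternatives. In GF+SCFA against GF, neither Tsc22d3 (log2 fold change 0.37, edgeR adjusted p = 0.298) nor Pck1 (-0.05, edgeR adjusted p = 0.894) was called. GF replicate 3 was the lowest GF liver in Bcl6, at 5.86 TPM against 25.75 and 7.63 TPM. In the other listed genes it was the highest GF liver. The part of glucocorticoid signalling in the metallothionein values was not tested.

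Of 26 acute phase genes, which rise in the liver during inflammation, 3 were higher and 2 lower in ConvD against GF, with a median of 0.15. Against GF+SCFA, 4 were higher and 4 lower in ConvD, with a median of 0.22. Over all genes tested, 5.93% were higher and 6.9% lower against GF, and 9.44% higher and 8.97% lower against GF+SCFA. Apcs was higher in ConvD against GF (log2 fold change 0.59, edgeR adjusted p = 0.00194) and Il6ra, the receptor of interleukin 6, lower (-1.14, edgeR adjusted p = 0.000753). Between GF+SCFA and GF, edgeR called 0 of the 26, with 2 at an unadjusted p under 0.05 and 0 by DESeq2 or limma. Of all 12037 genes tested, 1477 had an unadjusted p under 0.05 in that comparison.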

How the data were processed

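Library preparation used the TruSeq Stranded mRNA kit on column-purified RNA, per the labels' protocols. Bowtie2 and RSEM 1.2.23 were run by the authors on mouse build mm9, per the submitters' processing notes, and neither Bowtie2's version nor a strand setting is given in the sources used here. The authors deposited estimated counts (RSEM expected counts, not normalised) and TPM per gene symbol, per the file headers. RSEM divides reads that match several genes, so members of near-identical families are uncertain.

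Expected counts were rounded and fitted with edgeR 4.0.16 in R 4.3.3 (filterByExpr with a minimum count of 10, TMM, robust quasi-likelihood, 1 model of 3 groups and 9 livers with 6 residual degrees of freedom). The p-values were adjusted by Benjamini-Hochberg over 12037 genes, and genes with an adjusted p under 0.05 were called. Each SE was taken as log2 fold change over the root of the F statistic, and a printed interval is 2 SE to either side. Levels by liver are the deposited TPM. Alternatives used limma 3.58.1, DESeq2 1.42.0, other scalings, a replicate block and leaving out each liver.

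Members and lists were chosen with earlier results of these data known. Genes named are the members, the 8 most like Mt1, the 6 most changed each way in GF replicate 3, and called members of the lists.

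Replicates of a group differed by 11.1 to 53.4 times sampling noise (chi-square per degree of freedom). The TMM factors were 0.935 to 1.06, and the coefficient of variation was 10.6%.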

Additional observations from a re-analysis of the deposited data

How the results depend on the processing

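The genes called in ConvD against GF, 1544 as reported, were 849 to 1466 with 1 liver left out (849 without ConvD replicate 2), and 952 and 887 with limma at pseudocounts of 0.5 and 0.1. In GF+SCFA against GF, 5 as reported, they were 0 to 173 with 1 liver left out (173 without GF replicate 3), 82 with DESeq2, 24 without a filter on low counts, 9 with library totals and 1 with limma at either pseudocount. In ConvD against GF+SCFA, 2216 as reported, they were 1383 to 2393. Called members were 1 to 2 with 1 liver left out in ConvD against GF, and 2 with library totals, DESeq2 and limma at either pseudocount, against 1 as reported; in ConvD against GF+SCFA they were 1 to 3 with 1 liver left out, against 2. The likeness of Mt2 to Mt1 was 0.95 as Spearman's rho. Small log2 fold changes turned round. For Slc30a1 in ConvD against GF the value was 0.0594 with upper-quartile factors, 0.0744 with library totals, 0.0607 and 0.0634 with limma, and -0.0784 to 0.0753 with 1 liver left out. Leaving out 1 liver also gave -2.04 to 0.0812 for Mt2 in ConvD against GF, -0.117 to 0.20 for Slc39a14 and -0.368 to 0.00685 for Slc39a4 in GF+SCFA against GF, and -0.0621 to 0.122 for Mtf1 and -0.0226 to 0.129 for Slc30a1 in ConvD against GF+SCFA. The cause was not tested. DESeq2 gave no adjusted p for Mt2 in any comparison. Replicate numbers gave no clear pairing of the livers. Deviations of same-numbered livers correlated at -0.079 to 0.185, and those of differently numbered livers at -0.136 to 0.138. The highest value, 0.185, was that of GF replicate 3 and GF+SCFA replicate 3. With the replicate block the genes called were 1514, 5 and 2195, the called members 1, 0 and 2, and the adjusted p of Mt2 in ConvD against GF+SCFA 0.0528. With 3 livers a group, the spread between livers limits the precision of the metallothionein values.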
